A study of Mus musculus with 24 samples.

Results

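Ccr2, Chil3, Arg1 and Mrc1 were followed as genes of recruited monocytes, of alternatively activated macrophages and of tissue-resident macrophages in the mouse heart after sham surgery. They were chosen by name, through the transcript identifiers that the study's own list of differentially expressed transcripts (DETs) pairs with these symbols, which gave 5 transcripts of 4 genes among the 63758 transcripts of the count table. Ccr2 is represented by uc012hdh.1 and uc009shc.1, Chil3 by uc008qvw.2, Arg1 by uc007erg.2 and Mrc1 by uc008ikk.2. That list of DETs was selected over time on these same 24 samples, so the presence of the 4 genes in it is not independent evidence that they changed.

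The study asked what the sham procedure itself does to the myocardium, using poly(A) RNA sequencing of the dissected left ventricle of 24 adult male C57BL/6 mice (C57BL/6J in the methods of the study), with 8 mice per time point (0 min, 45 min or 24 h). Every mouse received pentobarbital anesthesia with buprenorphine, was intubated and ventilated, and underwent a left thoracotomy in which a suture was passed around the left anterior descending coronary artery without being tied. The suture was withdrawn at once in the 0 min group and after 45 min in the 45 min group. In the 24 h group the chest was then closed and the mice were left alive until 24 h. No mouse was left without an operation, so the 0 min hearts served as the baseline and carry the anesthesia, the thoracotomy and the suture as well.

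Circulating monocytes leave the bone marrow and enter inflamed tissue through CCR2, a receptor of the chemokines CCL2, CCL7 and CCL12. CCL8 was listed with these as a ligand, and its receptor use was not examined. The heart also holds resident macrophages, many of which carry MRC1 (CD206), a mannose receptor that takes up glycoproteins. Chil3 (Ym1, a chitinase-like secreted lectin) and Arg1 (arginase 1, which turns arginine into ornithine and urea) are classical mouse genes of alternative, interleukin-4-driven activation, and both can also be expressed by monocytes that enter injured tissue. In whole tissue, a change in the number of cells of a type and a change in RNA per cell cannot be told apart.

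In the annotation of build GRCm38, Ccr2 lies at chr9:124101950-124113557 on the plus strand, Chil3 at chr3:106147554-106167564 on the minus strand, Arg1 at chr10:24915221-24927484 on the minus strand and Mrc1 at chr2:14229392-14332057 on the plus strand. Reads of some of these genes can be hard to place. Of all 76-base windows of the Chil3 transcript, 13.7% (201 of 1464) also occurred in transcripts of Chil4 or Gm6522, whereas no window of Arg1 or Mrc1 was found in another gene. The 2 Ccr2 transcripts belong to 1 gene, and how reads common to both were assigned is not given in the sources used here, so the split between them is uncertain.

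The promoters of the members are shown because the 4 genes were low or moderate at baseline and higher at 24 h. RefSeq (GRCm38.p6) gave a promoter window for 3 of the 4 genes, and the 250 bases before the RefSeq start of each are printed 5′ to 3′ on the strand of the gene. The windows searched also held the bases just after the start, and they were searched on both strands for the letters TTGCNNAA (C/EBP) and GAGGAAG (PU.1), and for short motifs of STAT6 and NF-kB. The RefSeq starts of Ccr2 and Mrc1 lie downstream of the gene starts given above, so most of the printed Ccr2 window and the last bases of that of Mrc1 fall inside those gene intervals. Capitals mark the matches, which did not overlap one another.
Chil3, chr3:106167565-106167814, minus strand: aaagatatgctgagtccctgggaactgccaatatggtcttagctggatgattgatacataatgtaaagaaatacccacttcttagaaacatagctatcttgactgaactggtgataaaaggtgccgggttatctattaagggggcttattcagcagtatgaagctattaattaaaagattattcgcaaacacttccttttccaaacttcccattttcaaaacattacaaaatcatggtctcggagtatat
Mrc1, chr2:14229164-14229413, plus strand: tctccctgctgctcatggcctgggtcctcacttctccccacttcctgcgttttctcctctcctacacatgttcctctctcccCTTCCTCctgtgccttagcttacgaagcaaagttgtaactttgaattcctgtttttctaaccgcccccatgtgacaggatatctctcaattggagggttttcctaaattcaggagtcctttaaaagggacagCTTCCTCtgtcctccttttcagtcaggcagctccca
Ccr2, chr9:124101933-124102182, plus strand: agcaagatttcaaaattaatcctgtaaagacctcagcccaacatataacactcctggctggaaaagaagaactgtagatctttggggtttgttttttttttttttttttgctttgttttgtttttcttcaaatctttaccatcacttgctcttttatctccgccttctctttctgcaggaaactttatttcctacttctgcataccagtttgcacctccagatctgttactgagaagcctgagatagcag

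The Mrc1 window held 2 matches to the PU.1 letters on the opposite strand, 168 and 36 bases before the start, and 13.6% of the 32851 promoters in the table hold at least 1. None of the motifs searched was found in the Chil3 or Ccr2 window. The C/EBP letters occur in 10.8% of all promoters, those of STAT6 in 6.95% and those of NF-kB in 1.63%. A match is a run of letters and not a measured binding site.

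The libraries held 9887957 to 14091629 counts, and 12972 to 18865 transcripts had at least 1 count. Levels are normalized read counts (CPM, counts scaled to a common library size), scaled by the trimmed mean of M values. A count of 0 in these libraries allows a level of up to 0.175 to 0.341 CPM (3 counts), and this limit, like the intervals on counts given here, covers counting error only. Cardiomyocyte genes marked the tissue as labelled, with a summed level of 6921 to 29221 CPM over the 24 samples. The transcript uc012ath.2 took between 0.997% and 35.2% of the counts. Among the 45 min samples, replicates 6, 7 and 8 stood apart with 13743, 14353 and 12972 transcripts detected against at least 17114 in the other 5. Levels are compared between samples for 1 gene at a time and not between genes, because transcript lengths were not used.

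At 24 h the transcripts of all 4 genes were higher than at 0 min, by widely different amounts. Arg1 and Chil3 went from 15 and 8 reads over the whole 0 min group to 8030 and 1997, Ccr2 rose 7.50-fold and Mrc1 1.95-fold. Of the 5 transcripts, 4 passed the filter on low counts and the quasi-likelihood test of edgeR called all 4 of these higher at a threshold of 0.05 on the adjusted p, against a background of 4.44% of the 8940 transcripts tested called higher in that comparison (7.68% in either direction). The fifth, uc009shc.1, had too few counts to be tested. Chil3 and Arg1 passed the filter only through their 24 h counts, so the count of 4 of 4 is a description and supports nothing by itself, and with the 0 min and 45 min samples alone 2 of the 5 transcripts were tested.

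**Figure D1:**
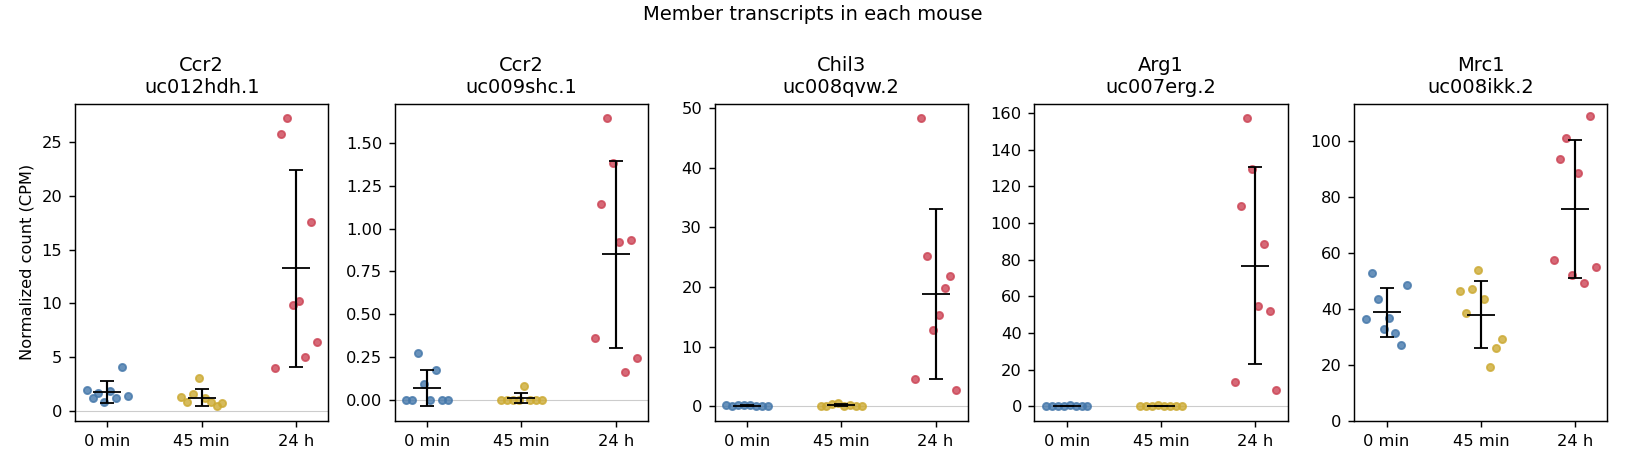
Normalized read count (CPM, linear axis) of each member transcript in each of 24 mice by time after sham surgery; points are mice, the long bar is the mean and the whiskers are 1 SD (n = 8). Every 24 h mouse lies above every earlier mouse for Chil3 and Arg1, whereas the Mrc1 groups overlap.

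The main Ccr2 transcript, uc012hdh.1, ranged from 0.821 to 4.09 CPM at 0 min with a median of 1.54 CPM. At 24 h it ranged from 3.97 to 27.2 CPM with a median of 10.02 CPM. Only 1 of the 8 mice at 24 h, replicate 1, lay within the 0 min range, whose top was set by replicate 7. The log2 fold change was 2.91 ± 0.42 (SE, n = 8 and 8; adjusted p = 3.30e-05, edgeR), and the group means were 1.77 ± 1.01 and 13.2 ± 9.20 CPM (SD). The second Ccr2 transcript, uc009shc.1, had 6 counts in all 8 mice at 0 min and 92 at 24 h, a pooled ratio of 12.7 (95% counting interval 5.61 to 35.5). Of the 24 h mice, 6 of 8 exceeded the highest 0 min value of 0.275 CPM. Without the filter on low counts, where 27661 transcripts were tested, its log2 fold change was 3.48 ± 0.66 (SE; adjusted p = 0.000774, edgeR). With both transcripts summed, Ccr2 had a median of 1.64 CPM at 0 min and 11.2 CPM at 24 h.

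Chil3 had between 0 and 2 counts in each 0 min mouse, 8 in all, and was at 0 in 4 of the 8. At 24 h it had between 33 and 550 counts, which correspond to 2.66 to 48.4 CPM with a median of 17.6 CPM. The groups did not overlap. The log2 fold change was 7.55 ± 0.68 (SE; adjusted p = 3.18e-08, edgeR), and the pooled counts gave a ratio of 207 with a 95% counting interval of 105 to 479.

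Arg1 had between 0 and 7 counts in each 0 min mouse, 15 in all, and was at 0 in 3 of the 8. At 24 h it had between 109 and 2201 counts, or 8.80 to 157 CPM with a median of 71.5 CPM. These groups did not overlap either. Its log2 fold change of 8.73 ± 0.71 (SE; adjusted p = 7.27e-09, edgeR) was the highest of the 4 genes, and the pooled ratio was 443 (95% counting interval 268 to 792). Across all transcripts tested, 0.996% had every 24 h sample above every 0 min sample.

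Mrc1 had 3466 counts over the 8 mice at baseline, against 155 for Ccr2 uc012hdh.1, and so was measured with less counting error. It ranged from 27.2 to 52.8 CPM at 0 min with a median of 36.7 CPM, and from 49.2 to 109 CPM at 24 h with a median of 72.9 CPM. The groups overlapped, with 6 of the 8 mice at 24 h above the highest 0 min mouse. The log2 fold change was 0.97 ± 0.21 (SE; adjusted p = 0.00372, edgeR).

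At 45 min none of the 4 genes had changed beyond the spread between mice. The number called by edgeR was 0 of 4, against 0.727% of all transcripts tested in either direction and 0.481% called higher. It was also 0 at an unadjusted p under 0.05 in edgeR, and 0 with DESeq2 and with limma-voom. Ccr2 uc012hdh.1 ranged from 0.416 to 3.06 CPM with a median of 1.04 CPM, and its log2 fold change against 0 min was -0.47 ± 0.44 (SE; adjusted p = 0.952, edgeR). The second Ccr2 transcript had a single count in the whole 45 min group. Chil3 had 14 counts and Arg1 13 over the 8 mice, so that ratios to 0 min of 0.693 to 4.87 for Chil3 and of 0.384 to 1.97 for Arg1 lay within the 95% counting intervals. For these low transcripts a change of such size was not detectable at this depth.

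Mrc1 ranged from 19.2 to 53.9 CPM at 45 min with a median of 41.1 CPM, a log2 fold change of -0.03 ± 0.21 (SE; adjusted p = 0.988, edgeR). The 3 lowest mice, at 19.2, 26.1 and 29.1 CPM, were replicates 6, 7 and 8, the 3 with the fewest transcripts detected, and the other 5 lay between 38.5 and 53.9 CPM. The same 3 mice had the 3 lowest levels of Ccr2 uc012hdh.1, at 0.795, 0.416 and 0.781 CPM. Without them the 45 min change of Mrc1 was 0.23 on the log2 scale (adjusted p = 0.612, edgeR), which turns its direction, and that of Arg1 was 0.31 (adjusted p = 0.931). With the number of detected transcripts as a term in the fit of all samples, neither direction turned, at -0.02 for Mrc1 and -0.21 for Arg1 (adjusted p = 0.985 and 0.980, edgeR).

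From 45 min to 24 h the same 4 transcripts were called higher, against 4.59% of all transcripts called higher (9.09% in either direction). The log2 fold change was 3.37 ± 0.43 for Ccr2 uc012hdh.1 (SE; adjusted p = 8.87e-06, edgeR) and 6.81 ± 0.63 for Chil3 (adjusted p = 8.30e-08). It was 8.93 ± 0.73 for Arg1 (adjusted p = 1.13e-08) and 0.99 ± 0.21 for Mrc1 (adjusted p = 0.00321). Every mouse at 24 h exceeded every 45 min mouse for Ccr2 uc012hdh.1, Chil3 and Arg1, as did 0.682% of all transcripts tested. The untested uc009shc.1 was also separated, but only by 2 counts (0.165 CPM) against 1 (0.0816 CPM), levels that a count of 0 allows. For Mrc1, 6 of the 8 mice at 24 h exceeded every 45 min mouse. This comparison shares its 24 h mice with the one against 0 min and is not a second experiment. Tested over all 3 time points together, all 4 transcripts were called, against 8.91% of all transcripts, with adjusted p from 5.97e-11 for Arg1 to 0.00147 for Mrc1 (edgeR).

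**Figure D2:**
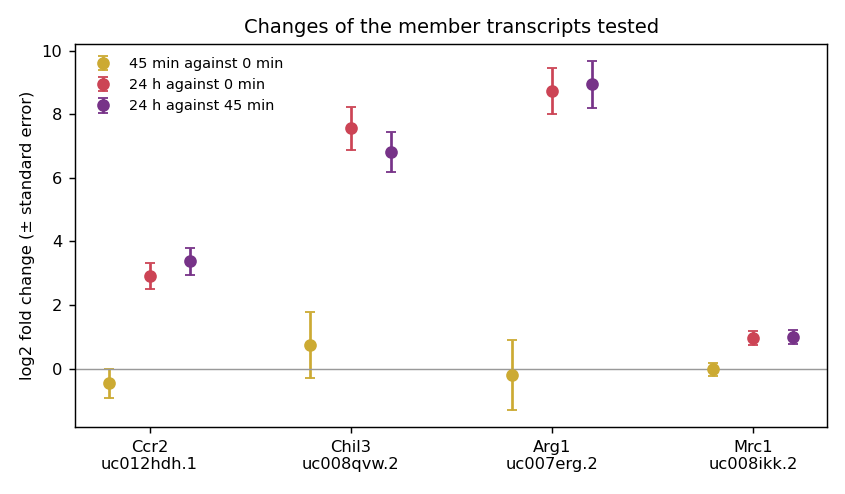
log2 fold change (points) and standard error (whiskers) of the 4 transcripts tested in the 3 comparisons, 8 mice per time point. Both 24 h comparisons lie above 0, between 0.97 for Mrc1 and 8.93 for Arg1, and the 45 min values lie between -0.47 and 0.74.

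To ask whether Ccr2, Chil3 and Arg1 changed by another factor than Mrc1, the log2 ratio of each to Mrc1 was taken within each sample, with 0.5 CPM added to both levels and with both Ccr2 transcripts summed, here and in the correlations. From 0 min to 24 h the ratio of Ccr2 to Mrc1 increased by 1.52 (two-sided exact permutation test, n = 8 and 8, adjusted p = 0.00392 over the 14 ratio tests). The ratio of Chil3 to Mrc1 was higher by 3.72 and that of Arg1 to Mrc1 by 5.46, each with an exact adjusted p = 0.000544 and with no overlap between the groups. The unadjusted exact p of both, 0.000155, is the smallest that this design can give. Both separations followed from the levels given above, where Chil3 and Arg1 did not overlap and Mrc1 varied less. These p therefore add no independent support. The size of these differences depends on the added constant because Chil3 and Arg1 were near 0 at baseline. With 0.1 CPM in place of 0.5 they were 5.45 and 7.03, and with 2 CPM they were 2.09 and 3.81.

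Against the summed level of 14 tested and 1 untested pan-myeloid genes in the same sample, Ccr2 was again higher at 24 h, by 1.18 (exact permutation test, n = 8 and 8, adjusted p = 0.00508). Chil3 was higher by 3.37 and Arg1 by 5.12 (exact adjusted p = 0.000544 for each). The levels of Chil3 and Arg1 were already separate between these groups, so these p add little to that. The ratio of Mrc1 to the pan-myeloid sum differed by -0.34 (exact permutation test, adjusted p = 0.258), which did not pass the threshold. The pan-myeloid genes come from the study's list of DETs, chosen on these same samples, and 13 of the 14 tested were called higher at 24 h. Ratios to their sum, at 24 h and at 45 min, therefore have a denominator that was itself selected for changing over time. At 45 min the ratio of Ccr2 to the pan-myeloid sum was lower than at 0 min by 0.747 (two-sided exact permutation test, adjusted p = 0.0329), but the call was lost when any of 7 single samples was left out, up to an adjusted p of 0.0740. The 7 were 0 min replicates 1, 3, 6 and 7, and 45 min replicates 6, 7 and 8, with differences from -0.76 to -0.57.

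**Figure D3:**
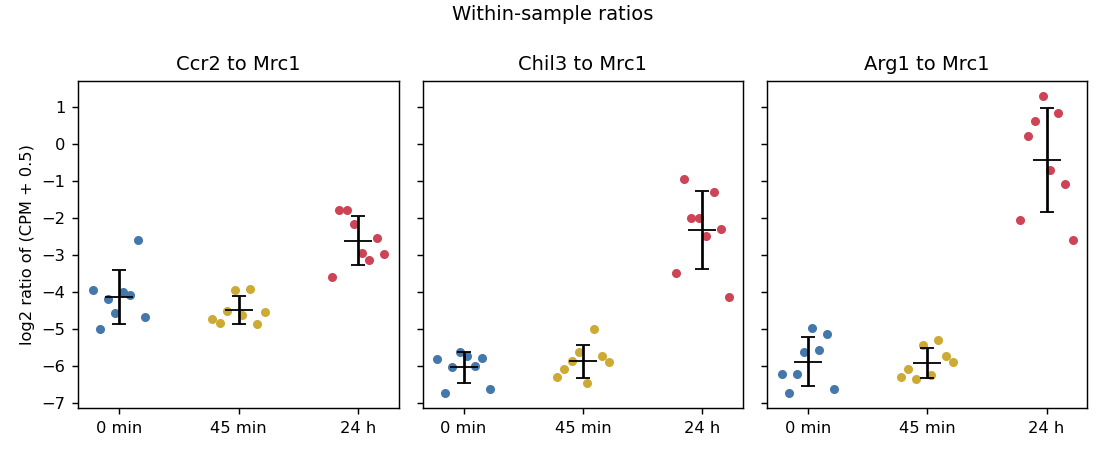
log2 ratio of Ccr2, Chil3 and Arg1 to Mrc1 within each sample, each level in CPM plus 0.5; points are mice, the long bar is the mean and the whiskers are 1 SD (n = 8 per time point). The mean ratio of Arg1 to Mrc1 was -5.89 at 0 min and -0.42 at 24 h.

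The 4 genes did not vary alike among the 8 mice at 24 h. The coefficient of variation was 69.5% for Ccr2 uc012hdh.1, 76.03% for Chil3, 70.1% for Arg1 and 32.6% for Mrc1, and the highest mouse exceeded the lowest 17.9-fold for Arg1 and 18.1-fold for Chil3 against 2.21-fold for Mrc1. Replicates 8 and 1 were the lowest for both Arg1, at 8.80 and 13.4 CPM, and Chil3, at 2.66 and 4.62 CPM. Replicate 3 was the highest for Arg1 and for Ccr2 uc012hdh.1, replicate 2 for Chil3 and replicate 7 for Mrc1. Replicates 4 and 6 combined low Mrc1, at 52.0 and 49.2 CPM, with Arg1 levels of 130 and 88.5 CPM.

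Pearson's r over these 8 mice, on log2(CPM + 0.5), was 0.870 for Chil3 with Arg1 (Spearman's rho 0.643) and 0.835 for Ccr2 with Mrc1 (rho 0.690). For the other pairs it was 0.745 for Ccr2 with Chil3 (rho 0.762), 0.651 for Ccr2 with Arg1 (rho 0.667), 0.610 for Chil3 with Mrc1 (rho 0.595) and 0.349 for Arg1 with Mrc1 (rho 0.0952). After adjustment over the 6 pairs, none passed the threshold by the exact permutation test, with adjusted p from 0.0656 to 0.390 for r and from 0.144 to 0.840 for rho. Unadjusted, r had an exact p of 0.0109 for Chil3 with Arg1, 0.0226 for Ccr2 with Mrc1 and 0.0334 for Ccr2 with Chil3. Without replicates 1 and 8, the 2 mice farthest from the median of Chil3, r of Chil3 with Arg1 was 0.203 over 6 mice. The size of r thus depended on those 2 mice together. Leaving out the farthest mice also narrows the range, which by itself tends to lower r. With single mice left out, r of this pair ran from 0.753 to 0.940. Without replicates 1 and 3, r of Ccr2 with Mrc1 was 0.816.

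**Figure D4:**
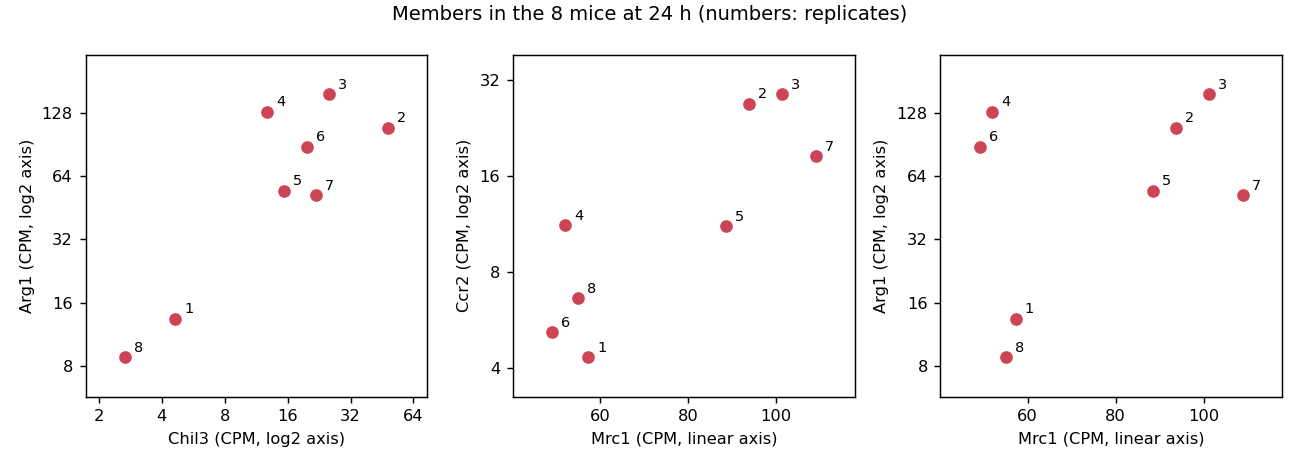
Levels of Arg1 against Chil3, Ccr2 (both transcripts summed) against Mrc1, and Arg1 against Mrc1 in the 8 mice at 24 h, in CPM, with log2 axes except for Mrc1; numbers name the replicates. Replicates 1 and 8 lie apart at low Chil3 and Arg1, and replicates 4 and 6 hold low Mrc1 with Arg1 at 130 and 88.5 CPM.

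Of the genes of the CCR2 axis, 2 ligands were called at 45 min with all samples in the fit and 0 without the 3 samples of 45 min that stood apart, and the receptor was called in neither. Summed over the 4 listed ligands, Ccl8 among them, the level ran from 3.5003 to 11.03 CPM at 0 min. It ran from 6.43 to 47.0 CPM at 45 min and from 8.88 to 123 CPM at 24 h. At 45 min 2 of the 4 were higher than at 0 min: Ccl2, the main monocyte attractant, with a log2 fold change of 2.26 ± 0.47 (SE; adjusted p = 0.0118, edgeR), and Ccl7, its close relative, with 2.15 ± 0.47 (adjusted p = 0.0217). Without replicates 6, 7 and 8 of 45 min these were 1.86 and 1.59 and neither was called (adjusted p = 0.130 and 0.218, edgeR). With the number of detected transcripts as a term in the fit of all samples they were 2.18 and 2.05. Both were then called (adjusted p = 0.00726 and 0.00749, edgeR). At 24 h all 4 were higher than at 0 min, with a median of 3.28 against 0.0033 for all transcripts tested. Ccl12 rose by 2.85 ± 0.57 and Ccl8 by 2.73 ± 0.75 on the log2 scale (adjusted p = 0.00150 and 0.0235, edgeR). Without replicate 4 of the 24 h mice, which had the highest summed level, 3 of the 4 were called and Ccl8 was not, at 1.63 (adjusted p = 0.111, edgeR).

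The marker lists used here and below hold only genes of the study's list of DETs, chosen on these samples, so high counts of called genes are built in and give no independent evidence of direction. All 11 monocyte genes tested were higher at 24 h than at 0 min, with a median log2 fold change of 1.95. At 45 min 0 were called with all samples and transcripts in the fit, whereas Ms4a6c, a membrane protein of monocytes, was called without the 3 samples of 45 min, at 1.08 (adjusted p = 0.0282, edgeR), without uc012ath.2 and with transcript detection as a term. It is named because of that call. The highest were Plac8, a gene of Ly6C-high monocytes, at 3.10 ± 0.61 (SE; adjusted p = 0.00132, edgeR), and Ccr1, a chemokine receptor, at 2.78 ± 0.44 (adjusted p = 0.000114). The lowest were F630028O10Rik at 1.51 ± 0.31 and Clec4a1, a C-type lectin, at 1.14 ± 0.19 (adjusted p = 0.00195 and 0.000240).

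The alternative activation genes did not all go the way of Chil3 and Arg1. Of 7 tested, 5 were higher and 1 was lower at 24 h against 0 min, with a median of 1.64. Msr1, a scavenger receptor, rose by 2.94 ± 0.39 and Gpnmb, a membrane glycoprotein of phagocytes, by 2.77 ± 0.46 on the log2 scale (SE; adjusted p = 1.22e-05 and 0.000195, edgeR). Retnla (RELM-alpha), which like Chil3 and Arg1 is a classical mouse gene of alternative activation, fell from a mean of 3.47 ± 1.54 CPM at 0 min to 1.43 ± 0.790 CPM by 24 h (SD over 8 mice each), and its log2 fold change was -1.28 ± 0.35 (SE; adjusted p = 0.0194, edgeR). Stab1, a scavenger receptor that is also in the resident list, had a value of 0.58 ± 0.21 (adjusted p = 0.106).

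Of the 10 transcripts of resident macrophage genes tested, 4 were higher at 24 h, with a median of 0.80 next to the 0.97 of Mrc1. Siglec1, a sialic acid receptor, had the highest value at 1.57 ± 0.27 (SE; adjusted p = 0.000252, edgeR), whereas Pf4, a chemokine also abundant in platelets, had 1.23 ± 0.49 (adjusted p = 0.144). The lowest values were those of Stab1, given above, and of the second transcript of Maf, a macrophage transcription factor, at 0.43 ± 0.18 (adjusted p = 0.160). Without the 3 samples of 45 min that stood apart, 8 of 11 were called higher, with a median of 0.81. That fit called more transcripts in general at 24 h against 0 min, 1065 in either direction against 687 with all samples.

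Genes shared among myeloid cells and genes of other cell types moved over the same interval. Of 14 pan-myeloid transcripts tested, 13 were higher at 24 h (median 1.40), from Mpeg1, a pore-forming protein of phagocytes, at 1.85 ± 0.25 and Cd53, a tetraspanin of leukocytes, at 1.68 ± 0.23 to Hcls1 at 0.87 ± 0.24 and Cybb, the oxidase subunit of phagocytes, at 0.83 ± 0.23 (log2 fold change, SE; adjusted p from 1.87e-05 to 0.0221, edgeR). All 7 neutrophil genes tested were higher (median 3.29), and their summed level ran from 3.98 to 18.7 CPM at 0 min and from 15.7 to 206 CPM at 24 h. Hp (haptoglobin) and Mmp8 (a collagenase of neutrophil granules) had the highest values, 4.42 ± 0.87 and 4.15 ± 0.79 (adjusted p = 0.00132 and 0.000988). The Hp value rests on 24 h replicate 4, at 165 CPM against 1.86 to 13.2 CPM in the other 7 mice, and was 2.51 without it (adjusted p = 0.00584, edgeR), below 4.21 for Mmp8. Cd177, a surface marker of neutrophils, had 2.59 ± 0.72 (adjusted p = 0.0243), and Hdc, which makes histamine, had 1.33 ± 0.21 (adjusted p = 8.63e-05). Hdc was the 1 gene of this list called at 45 min, at 1.06 ± 0.21 (adjusted p = 0.00662, edgeR). It was not called without the 3 samples of 45 min that stood apart, at 0.94 (adjusted p = 0.0879, edgeR). With transcript detection as a term it stayed called, at 1.05 (adjusted p = 0.00395, edgeR). In the 24 h mice the neutrophil sum was lowest in replicates 8 and 1, at 15.7 and 18.6 CPM, the same 2 mice that were lowest for Arg1 and Chil3, and highest in replicate 4, at 206 CPM. The pan-myeloid sum was also lowest in replicates 8 and 1, at 90.2 and 124 CPM against 185 to 397 CPM in the others. The part of neutrophils in the Arg1 and Chil3 levels was not tested.

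Of 7 mesothelial genes tested, which mark the lining of the heart and chest cavity, 6 were higher at 24 h (median 2.14), and their summed level ran from 11.6 to 22.6 CPM at 0 min and from 54.3 to 147 CPM at 24 h without overlap. Krt8 (a keratin) had 3.87 ± 0.51 and Prg4 (lubricin) 3.05 ± 0.29 (log2 fold change, SE; adjusted p = 1.04e-05 and 9.90e-08, edgeR), while Aldh1a2, which makes retinoic acid, had 1.94 ± 0.27 (adjusted p = 2.30e-05) and Muc1 0.68 ± 0.31 (adjusted p = 0.233). None of the 8 listed mesothelial genes was at 0 in all samples of a time point. Their part in the members' change was not tested.

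Of 4 dendritic cell and antigen presentation genes tested, 2 were higher and 1 was lower at 24 h. Itgax (CD11c) rose by 2.49 ± 0.41 and Wdfy4 by 0.87 ± 0.25 on the log2 scale at 24 h (SE; adjusted p = 0.000178 and 0.0291, edgeR). Cd74, the invariant chain of MHC class II, was lower, at -1.02 ± 0.28 (adjusted p = 0.0192), and H2-Aa, an MHC class II chain, had -0.83 ± 0.31 (adjusted p = 0.115), and -1.11 without 24 h replicate 4 (adjusted p = 0.0238, edgeR). Of the cardiomyocyte genes, 4 of 8 transcripts were lower at 24 h and none was higher (median -0.49). Actc1, cardiac actin, and Myh7b, a myosin, had -1.38 ± 0.18 and -1.28 ± 0.23 (adjusted p = 1.07e-05 and 0.000552), and the highest values were those of Tpm1 at 0.17 ± 0.25 and Lmod2 at -0.20 ± 0.14 (adjusted p = 0.790 and 0.524).

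Among 7 transcription factors known to act at macrophage genes, 2 were higher and 1 was lower at 24 h. Spi1 (PU.1), a regulator of myeloid identity, rose by 1.41 ± 0.35 on the log2 scale (SE; adjusted p = 0.0104, edgeR). Egr1, an immediate early gene, fell by 1.48 (adjusted p = 0.0265, edgeR), and Ppard had -0.18 ± 0.12 (adjusted p = 0.473). At 45 min 0 of the 7 were called, and 1, Cebpd (a C/EBP factor, named for that call), with transcript detection as a term, at 1.12 (adjusted p = 0.0252, edgeR).

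**Figure D5:**
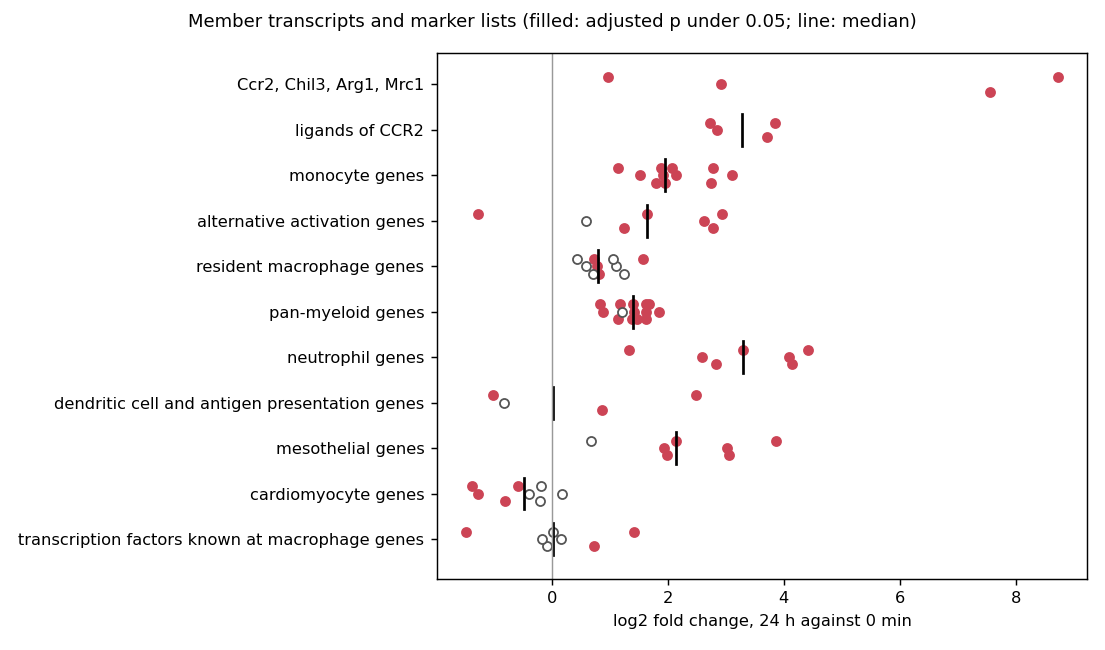
log2 fold change at 24 h against 0 min of the 4 member transcripts tested and of the tested transcripts of 10 gene lists; filled points passed an adjusted p of 0.05 (edgeR), open points did not, and vertical lines are list medians. Chil3 and Arg1, at 7.55 and 8.73, lie beyond every list gene, and Retnla lies at -1.28 among the alternative activation genes.

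The transcripts whose levels followed each member most closely over the 24 samples were taken from the 1093 transcripts of the study's list that were tested, by Pearson's r on log2(CPM + 0.5). All points share the time course and the libraries, so these values are a description. For Ccr2 uc012hdh.1 they were Mpeg1 (r = 0.937), Ctsc, Emb, Cd53 and Ahnak2 (r = 0.895). For the second Ccr2 transcript they were Rab32 (r = 0.919), Itgax, Serpinb1a, Gpnmb and Mpeg1 (r = 0.872). For Chil3 they were Prg4 (r = 0.952), Cxcl5, Emb, Syt12 and Ms4a6d (r = 0.933), and for Arg1 they were Syt12 (r = 0.950), Emb, Prg4, Lcn2 and Cxcl5 (r = 0.927). For Mrc1 they were Soat1 (r = 0.951), C3ar1, Cybb, Pros1 and Iqgap2 (r = 0.905). Chil3 and Arg1 had 4 of these 5 transcripts in common, and Mrc1 had 0 in common with any other member. Within the 8 mice at 24 h alone, r of Arg1 was 0.912 with Emb and 0.326 with Lcn2, and r of Mrc1 with Soat1 was 0.958.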

How the data were processed

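Poly(A) RNA of the left ventricle of 24 mice, 8 per time point after sham surgery, was measured with directional libraries. Per the labels and methods, the authors trimmed reads with cutadapt 1.9.1, aligned them to mm10 with TopHat2 2.1.0 and Bowtie2 2.2.9, and counted them per UCSC transcript with HTSeq 0.6.0, and the deposited values are raw counts. The counting mode, the strand setting and the transcript release are not given in the sources used here. Groups were taken from the time labels. Surgeon and library pool are not in the labels and were not used.

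Of the 63758 transcripts, 27661 had at least 1 count and 8940 passed edgeR's filterByExpr by time (minimum count 10, minimum total 15). All 24 samples entered 1 fit with time as the only term (edgeR 4.0.16, R 4.3.3, TMM scale factors, quasi-likelihood F-tests, Benjamini-Hochberg adjustment over all transcripts tested, threshold 0.05). CPM use the same scale factors. The SE of a log2 fold change was derived from its F-test and not estimated separately. It is the absolute log2 fold change divided by the square root of F. Ratios and correlations used log2(CPM + 0.5) and exact two-sided permutation tests over samples (12870 splits of 8 against 8, 40320 pairings of 8), adjusted over 14 ratios and 6 pairs of genes. Alternatives were RLE and upper-quartile scale factors, DESeq2 1.42.0, limma-voom (limma 3.58.1), no filter, a minimum count of 50, counts summed per gene, a replicate block, 1 surrogate variable (sva 3.50.0), the transcript with the highest share left out, fits of only the samples of both time points, pseudocounts of 0.1 and 2, and each sample left out in turn. The scripts were tested on simulated counts. No pair of samples of a time point (84 pairs) differed by as little as sampling noise (chi-square per degree of freedom at least 8.64), so each was counted as a replicate.

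Symbols came from the study's list of 1209 DETs. The members, lists and tests were chosen with earlier results of these data known. Members were always named. From each list, all genes were named where it had up to 4, and otherwise the 2 transcripts with the highest and the 2 with the lowest log2 fold change at 24 h against 0 min, except that some items are not reported here. For each member the 5 most alike transcripts of the study's list were named. Shared windows were counted in GENCODE transcripts, and promoters came from RefSeq, both of GRCm38.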

Additional observations from a re-analysis of the deposited data

Results flagged for a closer look

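Of the 15 groups of 8 samples formed by the 5 transcripts at 3 time points, 2 had a sample far from the others by Dixon's test. Both were at 45 min and rested on few reads. The usual chance rate of about 1 in 20 does not apply to groups mostly at 0 or 1 count. Where 7 of 8 samples are at 0, any read in the last sample is flagged. For the second Ccr2 transcript, uc009shc.1, replicate 5 was the highest at 0.0816 CPM, which was its single count, while the other 7 were at 0. For Arg1, replicate 4 was the highest at 0.765 CPM, or 9 counts, while the other 7 had 0 or 1 count.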

How the results depend on the processing

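The 4 member transcripts tested stayed called higher at 24 h against 0 min, at 24 h against 45 min and over time with each of the 24 samples left out in turn, and under every alternative that tested them. With a minimum count of 50 only 2 transcripts were tested and called in each of these comparisons, because the filter removed the others. At 24 h against 0 min the log2 fold change over the alternatives ran from 2.72 to 2.94 for Ccr2 uc012hdh.1, 7.10 to 7.71 for Chil3, 8.59 to 9.13 for Arg1 and 0.69 to 0.99 for Mrc1. Same-numbered samples of different time points correlated in their deviations at a median of 0.111 (12 of 24 pairs above 0.1, range -0.485 to 0.558). The median of the other pairs was -0.0111. No sample correlated best with its own number in both other time points at once. Whether the replicate numbers stand for a pairing cannot be told from these values. With a replicate block, 4 members were called at 24 h against 0 min, among 617 transcripts in all against 687.

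At 45 min, where no member was called, directions were not stable. Mrc1 turned to 0.0144 with 1 surrogate variable and to 0.23 without the 3 samples with the fewest transcripts detected, where Arg1 turned to 0.31, and neither turned with detection as a covariate. The fit without these 3 samples, the covariate for transcripts detected, and the list counts without 24 h replicate 4 were chosen after seeing the data. The ratio of Arg1 to Mrc1 turned to 0.0348 with a pseudocount of 2, and the ratio of Arg1 to the pan-myeloid sum, -0.417 (exact adjusted p = 0.0408), lost its call at -0.598 with a pseudocount of 0.1. With single samples left out, the ranges were -1.53 to 0.49 for Arg1, -0.107 to 0.0712 for Mrc1, -0.154 to 0.0973 for Arg1 to Mrc1, -0.843 to -0.568 for Ccr2 to the pan-myeloid sum (7 of 16 lost the call) and -0.486 to -0.328 for Arg1 to it (9 of 16). At 24 h, r ranged from 0.655 to 0.910 for Ccr2 with Chil3, 0.517 to 0.829 for Ccr2 with Arg1 and 0.753 to 0.940 for Chil3 with Arg1, passing the threshold without replicate 6 for all 3 pairs and without replicate 4 for the last. The causes were not tested. Over all results and alternatives, 847 values kept their direction and call, 18 reversed, 17 lost the call, 4 gained it and 3 counts moved by over 1.5 times.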
